A study of Mus musculus with 16 samples.

Results

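The subject is 32 genes that describe the state of microglia, the resident macrophages of the brain, measured in the cerebral cortex of mice with mutations of Aifm1. They were chosen by name: 16 genes that mark microglia at rest, called homeostatic here and running from Cx3cr1 to Olfml3, and 16 disease-associated genes, running from Cst7 to Apoe. All 32 were found, each as 1 row, among the 55573 gene rows of the count table. The rule that names them uses no expression value, though the set was proposed with earlier results of these data known.

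Transcripts were counted in 16 libraries, 4 in each of 4 groups. Aifm1-KI mice carry a knock-in allele that lacks residue R200 of apoptosis-inducing factor, the mitochondrial flavoprotein that Aifm1 encodes, and Aifm1-WT mice are their wild-type littermates. Hq-mut mice carry the Harlequin allele of the same gene in the B6CBACa Aw-J/A-Aifm1Hq/J stock, and Hq-WT mice are their own wild-type littermates. The labels give C57BL/6 as the strain of every library, an age of around postnatal day 180, and no treatment in any group, and they name no sex. Whether every library came from its own animal is not stated, and the p-values reflect only how far these libraries spread, which may in part be technical. Whole cortex was used, with no sort for microglia, and in such bulk tissue fewer cells of a type and less RNA per cell cannot be told apart.

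Microglia survive on signals through the CSF1 receptor and watch neurons through receptors for fractalkine and for nucleotides. In models of neurodegeneration and demyelination, mouse microglia lower many homeostatic genes and raise a disease-associated set of lipid, lysosome and adhesion genes. This shift in part needs the receptor TREM2 and its adaptor TYROBP. Their genes stand in the homeostatic set here, so that the shift does not imply a fall of all 16 members. Several genes of the disease-associated set are also made by other brain cells, such as Apoe by astrocytes, Cd9 by cells of the oligodendrocyte lineage and Lpl by neurons.

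Aifm1 itself was measured first. Its level, in CPM (counts relative to a library size scaled by TMM, on a common scale), was 21.7, 24.6, 25.8 and 22.8 in Aifm1-KI and 21.5, 22.8, 22.9 and 23.5 in Aifm1-WT libraries 1 to 4, groups that overlap (log2 fold change 0.077, SE 0.069, adjusted p = 0.679 by edgeR's quasi-likelihood test). It was 3.77, 2.23, 3.29 and 4.01 in Hq-mut and 23.1, 25.8, 23.5 and 23.4 in Hq-WT libraries (log2 fold change -2.87, SE 0.19, adjusted p = 0.000348), so that every Hq-mut library lay far below every Hq-WT library. The deepest library, Aifm1-KI 2, held 32551594 counts and the shallowest, Hq-WT 3, held 10671580. With 3 counts as the limit, a gene with no count may have had up to 0.0922 CPM in the deepest and 0.281 CPM in the shallowest of them, for counting error alone. Some libraries stood apart in markers of neighbouring tissue. Summed striatal markers were 239, 529, 165 and 464 CPM in Aifm1-KI 1 to 4, against 169 to 182 CPM in Aifm1-WT, and they reached 608 CPM in Hq-mut 3. Summed choroid plexus markers, led by the transthyretin gene Ttr, were 2836 CPM in Aifm1-KI 2 and 5523 CPM in Hq-WT 2. Hq-mut 2 and Hq-WT 2 were also shifted towards genes of short exon length, as described with the Harlequin results.

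The stretches of genome around the starts of the members were compared for a few short motifs, and 5 windows are printed because the results turn on their genes: C1qb and C1qc as neighbouring genes of 1 protein, Fcrls as the most variable homeostatic member, Spp1 as the single member that passed edgeR's test in any comparison, and Ctsd as the disease-associated member with the highest level per length after Apoe. Each window runs from 250 bases before to 50 bases after the start, 5′ to 3′ on the strand of the gene, from RefSeq promoters on GRCm38.p6. They lie at chr4:136886151-136886450 (C1qb, minus strand), chr4:136892865-136893164 (C1qc, minus), chr3:87263475-87263774 (Fcrls, minus), chr5:104434861-104435160 (Spp1, plus, the first of its windows) and chr7:142387778-142388077 (Ctsd, minus). Capitals mark the purine box GAGGAAG, a form bound by ETS-family factors such as PU.1, the E-box CACGTG, bound by factors such as TFEB, and TGCTGA, the core of the element bound by MAF factors, each on either strand.
C1qb: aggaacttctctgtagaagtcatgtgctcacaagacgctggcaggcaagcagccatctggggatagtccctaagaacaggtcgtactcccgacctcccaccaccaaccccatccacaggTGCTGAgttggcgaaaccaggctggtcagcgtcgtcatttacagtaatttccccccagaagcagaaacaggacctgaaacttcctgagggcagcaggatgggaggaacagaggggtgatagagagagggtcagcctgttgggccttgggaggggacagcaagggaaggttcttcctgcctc
C1qc: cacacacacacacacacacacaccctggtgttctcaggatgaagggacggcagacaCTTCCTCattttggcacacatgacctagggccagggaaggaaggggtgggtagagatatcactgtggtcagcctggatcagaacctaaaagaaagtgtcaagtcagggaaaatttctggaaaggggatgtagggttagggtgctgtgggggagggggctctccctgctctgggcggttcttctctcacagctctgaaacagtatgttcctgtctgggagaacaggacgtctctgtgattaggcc
Fcrls: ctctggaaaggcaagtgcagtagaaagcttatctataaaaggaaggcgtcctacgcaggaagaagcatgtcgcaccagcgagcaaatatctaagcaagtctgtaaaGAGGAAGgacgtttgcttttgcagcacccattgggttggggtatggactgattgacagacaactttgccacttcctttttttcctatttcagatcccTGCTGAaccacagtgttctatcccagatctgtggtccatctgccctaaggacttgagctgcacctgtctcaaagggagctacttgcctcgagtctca
Spp1: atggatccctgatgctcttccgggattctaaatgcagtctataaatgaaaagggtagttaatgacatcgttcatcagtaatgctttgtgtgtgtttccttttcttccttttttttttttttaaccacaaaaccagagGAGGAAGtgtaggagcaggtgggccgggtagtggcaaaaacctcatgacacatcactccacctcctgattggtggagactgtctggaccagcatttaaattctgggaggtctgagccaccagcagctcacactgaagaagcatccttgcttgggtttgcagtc
Ctsd: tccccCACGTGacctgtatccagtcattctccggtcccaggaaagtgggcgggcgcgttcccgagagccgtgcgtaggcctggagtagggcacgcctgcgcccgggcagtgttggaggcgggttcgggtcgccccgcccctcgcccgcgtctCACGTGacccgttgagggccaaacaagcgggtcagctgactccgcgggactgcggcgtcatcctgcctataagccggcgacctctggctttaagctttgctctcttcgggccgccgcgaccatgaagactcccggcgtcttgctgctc
Windows were found for 26 of the 32 members, 11 homeostatic and 15 disease-associated. The purine box was present in 4 of 11 homeostatic members (C1qc, Fcrls, Itgam and Trem2) and 3 of 15 disease-associated members (Axl, Cd63 and Spp1), against 15.4% of the 27025 genes with a window. The E-box was present in 2 of 11 (P2ry12 and Siglech) and 1 of 15 (Ctsd, with 2 matches that begin 245 and 98 bases before the start), against 8.09% of all these genes. TGCTGA was present in 2 of 11 (C1qb and Fcrls) and 2 of 15 (Cst7 and Ctsz), against 21.7% of all these genes. Of the 18 matches in the members' windows, 0 share bases with another. These matches are letters in a window, and binding was not measured.

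Levels were compared between genes per kilobase of exon (CPM per kb). Apoe, the main lipid carrier of the brain, stood highest at 447 CPM per kb, followed by Ctsd, the lysosomal aspartic protease cathepsin D, at 53.2 CPM per kb. The complement genes C1qa and C1qb, which encode chains of C1q, the recognition protein of the classical complement pathway, came next among the 32 at 29.4 and 24.9 CPM per kb. At the other end stood Clec7a, the fungal sugar receptor dectin-1, and Itgax, the integrin CD11c, at 0.065 and 0.041 CPM per kb, with Cst7, the cathepsin inhibitor cystatin F, at 0.14 CPM per kb. Over all 16 libraries these 3 genes had 59, 67 and 47 counts. Clec7a, annotated as a polymorphic pseudogene in this reference, had no count in Aifm1-KI 3 and in Hq-mut 1, where 0 allows up to 0.257 and 0.121 CPM. Cst7 had no count in Aifm1-KI 4, where 0 allows up to 0.135 CPM. With Lgals3, a sugar-binding galectin (164 counts), and Ccl6, a chemokine (244 counts), they had the fewest counts of the 32. The other 11 disease-associated members and all 16 homeostatic members had at least 10 counts in every library.

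**Figure D1:**
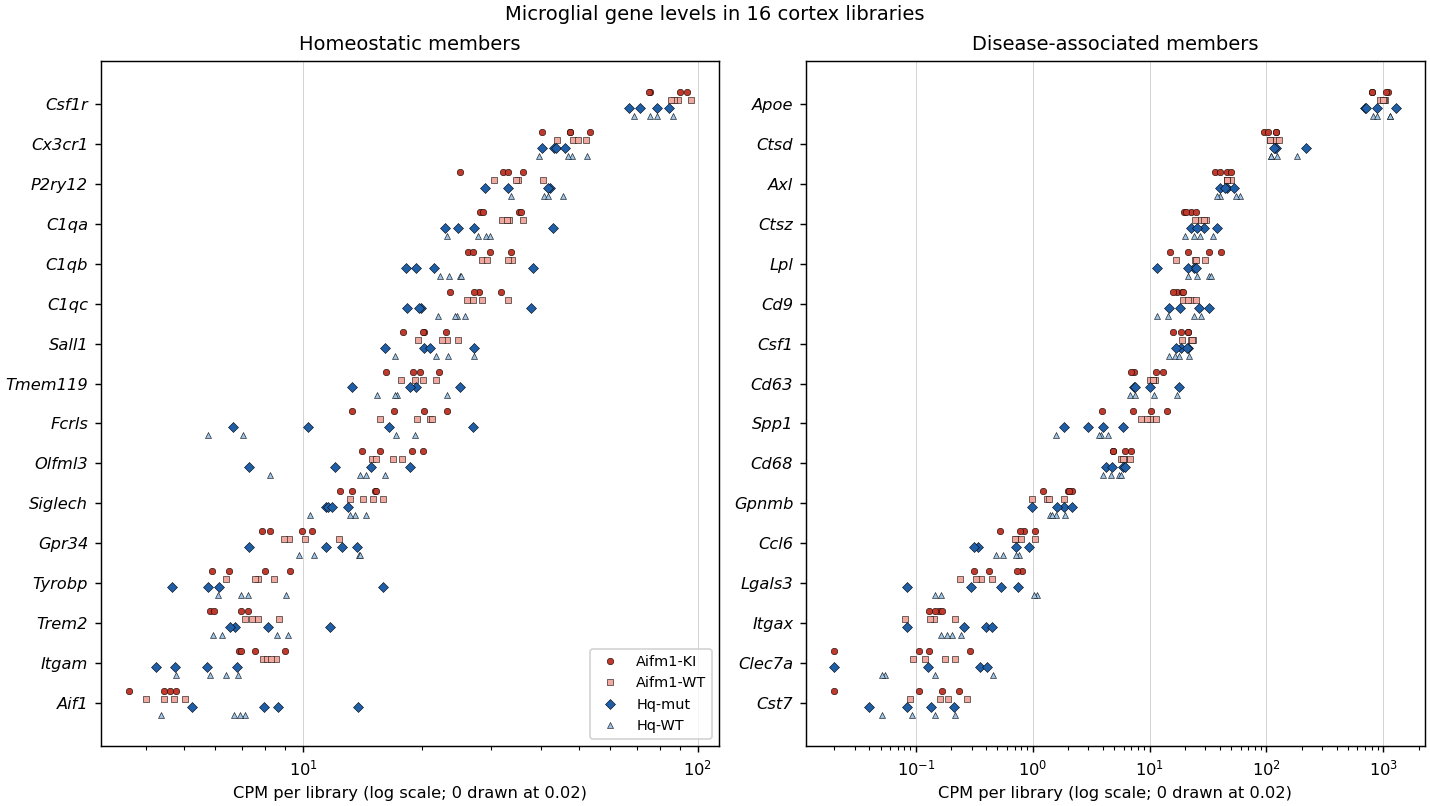
Level of each member in each library, in CPM on a log axis, with homeostatic members on the left and disease-associated members on the right, ordered by mean level; each symbol is 1 library and a level of 0 is drawn at 0.02 CPM. Apoe spans 694 to 1294 CPM, while Itgax, Clec7a and Cst7 stay below 0.5 CPM in every library.

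Members differed in how tightly they held within groups. The pooled within-group SD of log2 CPM was 0.14 for Cx3cr1, the fractalkine receptor, and for Csf1r, the CSF1 receptor, and 0.15 for Siglech, a sialic acid-binding lectin. It was 0.65 for Fcrls, an Fc receptor-like surface protein of mouse microglia, 0.62 for Spp1, the secreted protein osteopontin, 0.48 for Cd63, a tetraspanin of late endosomes, and 0.47 for Lpl, the lipase that frees fatty acids from lipoproteins. Fcrls was 10.3, 26.97, 6.66 and 16.5 CPM in Hq-mut 1 to 4 and 17.2, 19.3, 7.03 and 5.73 CPM in Hq-WT 1 to 4. The scatter of Fcrls was mostly in the Harlequin stock, where high and low libraries occurred in both genotypes and the groups overlap. In the knock-in stock Fcrls was 16.95, 23.2, 13.3 and 20.3 CPM in Aifm1-KI and 21.00, 21.2, 19.5 and 15.7 CPM in Aifm1-WT libraries.

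Aifm1-KI was set against Aifm1-WT to ask whether knock-in cortex differs in these genes. No member passed the test. Of the 28 members that passed the filter on low counts, 0 were called at an adjusted p under 0.05, as were 0.0% of all 18383 genes tested. At an unadjusted p under 0.05 stood 0 of 16 homeostatic and 2 of 12 tested disease-associated members, against 11.4% of all genes, and DESeq2 called 82 genes but no member. Of the homeostatic members 2 had a fold change above 0 and 14 below, with a median of -0.05 on the log2 scale. Of the disease-associated members 3 were above 0 and 9 below, with a median of -0.08. Over all genes 51.6% were above 0 and the median was 0.0055. By single libraries, 0 members had groups that do not overlap, against 4.87% of all genes.

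Among the receptors of the homeostatic set, P2ry12, which senses ADP and guides microglial processes, was 32.1, 36.1, 24.98 and 33.1 CPM in Aifm1-KI and 40.4, 35.1, 34.5 and 30.4 CPM in Aifm1-WT libraries (log2 fold change -0.13, SE 0.12, adjusted p = 0.676). The lowest library was Aifm1-KI 3, and the ranges of the groups overlap. Cx3cr1 was 47.3, 53.5, 40.4 and 47.4 CPM in Aifm1-KI and 52.2, 48.2, 49.7 and 43.9 CPM in Aifm1-WT libraries (log2 fold change -0.023, SE 0.088, adjusted p = 0.943), again with overlapping groups and both the highest and the lowest library in Aifm1-KI. Csf1r, whose ligands CSF1 and IL-34 keep microglia alive, was 75.5, 89.9, 75.02 and 94.1 CPM in Aifm1-KI and 96.3, 89.2, 86.9 and 85.5 CPM in Aifm1-WT libraries (log2 fold change -0.082, SE 0.082, adjusted p = 0.713). Aifm1-KI 1 and 3 were below every wild type, and Aifm1-KI 2 and 4 within the wild-type range. Csf1r shares 873 exon bases with Hmgxb3 on the opposite strand, and the strand setting of the counting is not given in the sources used here, so that reads of this stretch cannot be told apart. The others, namely Siglech, Gpr34 (a lysophospholipid receptor), Fcrls and Itgam (the integrin CD11b), had log2 fold changes of -0.032, -0.13, -0.040 and -0.090. Itgam shares 3450 of its 5024 exon bases with the same-strand gene Gm49368, which had 0 counts, so that its level may be understated.

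TREM2 binds lipids and lipoproteins and signals through TYROBP, also called DAP12. Trem2 was 5.81, 6.95, 5.95 and 7.24 CPM in Aifm1-KI and 8.70, 7.43, 7.70 and 7.12 CPM in Aifm1-WT libraries (log2 fold change -0.23, SE 0.11, adjusted p = 0.465). It had the smallest p of the homeostatic set, and Aifm1-KI 1, 2 and 3 lay below every wild type, with Aifm1-KI 4 inside their range. Tyrobp was 6.50, 9.29, 5.87 and 8.03 CPM in Aifm1-KI and 8.46, 7.71, 6.39 and 7.56 CPM in Aifm1-WT libraries (log2 fold change 0.0067, SE 0.15, adjusted p = 0.993). Its means were 7.42 ± 1.54 CPM in Aifm1-KI and 7.53 ± 0.854 CPM in Aifm1-WT (SD, n = 4 each), and without the filter on low counts the log2 fold change was -0.0072. C1qa was 27.99, 35.2, 28.5 and 35.7 CPM in Aifm1-KI and 36.1, 31.8, 33.2 and 32.8 CPM in Aifm1-WT libraries (log2 fold change -0.054, SE 0.091, adjusted p = 0.848), with Aifm1-KI 1 and 3 again the lower libraries. C1qb and C1qc, its partner chains, had log2 fold changes of -0.079 and -0.040. Sall1, a transcription factor that maintains microglial identity in mice, was 20.3, 20.1, 17.9 and 23.03 CPM in Aifm1-KI and 23.2, 22.5, 24.6 and 19.5 CPM in Aifm1-WT libraries (log2 fold change -0.13, SE 0.096, adjusted p = 0.627), with overlapping groups. Tmem119, a microglial surface protein, Aif1, the calcium-binding protein IBA1, and Olfml3, a secreted glycoprotein, had log2 fold changes of -0.019, -0.054 and 0.11.

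Among the disease-associated genes, Ctsz and Cd9 had the smallest p. Ctsz, the lysosomal carboxypeptidase cathepsin Z, was 22.6, 19.8, 25.1 and 20.5 CPM in Aifm1-KI and 30.1, 24.3, 27.5 and 29.4 CPM in Aifm1-WT libraries (log2 fold change -0.33, SE 0.093, adjusted p = 0.368). Aifm1-KI 1, 2 and 4 lay below every wild type, and Aifm1-KI 3 above the lowest one. Cd9, a tetraspanin of the cell surface, was 17.1, 18.9, 19.5 and 15.8 CPM in Aifm1-KI and 22.4, 19.3, 21.4 and 25.1 CPM in Aifm1-WT libraries (log2 fold change -0.29, SE 0.095, adjusted p = 0.368), where Aifm1-KI 3 alone exceeded the lowest wild type. Summed oligodendrocyte markers were 1936 to 4323 CPM in Aifm1-KI and 3640.0 to 4970.0 CPM in Aifm1-WT libraries, with all 10 fold changes below 0 and a median of -0.41. Their part in the Cd9 values was not tested. Csf1, the ligand of CSF1R, was 21.3, 18.7, 16.01 and 21.3 CPM in Aifm1-KI and 23.3, 22.7, 23.2 and 18.8 CPM in Aifm1-WT libraries (log2 fold change -0.17, SE 0.11, adjusted p = 0.560). Gpnmb, a glycoprotein of lysosomes and melanosomes, was 1.22, 2.16, 2.01 and 2.05 CPM in Aifm1-KI and 1.85, 1.33, 0.983 and 1.38 CPM in Aifm1-WT libraries (log2 fold change 0.44, SE 0.24, adjusted p = 0.504). Its fold change was the highest of the 12 tested disease-associated members, with Aifm1-KI 1 as the low library of its group.

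Apoe was 797, 1094, 799 and 1060.0 CPM in Aifm1-KI and 1026, 1020.0, 929 and 986 CPM in Aifm1-WT libraries (log2 fold change -0.065, SE 0.11, adjusted p = 0.847). The knock-in libraries lay on both sides of the wild types, with 1 and 3 below and 2 and 4 above. Ctsd was 96.1, 122, 103 and 121 CPM in Aifm1-KI and 121, 108, 106 and 129 CPM in Aifm1-WT libraries (log2 fold change -0.053, SE 0.091, adjusted p = 0.850), with overlapping groups, and it shares 808 exon bases with the same-strand gene Gm49369, which had 0 counts. Cst7 was 0.106, 0.234, 0.168 and 0 CPM in Aifm1-KI and 0.190, 0.161, 0.273 and 0.089 CPM in Aifm1-WT libraries, from 12 and 15 counts in all, which is too few to test here. Itgax and Clec7a were likewise not tested, with 13 counts in Aifm1-KI and 12 in Aifm1-WT for Itgax, and with 15 in Aifm1-KI and 13 in Aifm1-WT for Clec7a. Lgals3, also below the filter, was 0.317, 0.818, 0.419 and 0.742 CPM in Aifm1-KI and 0.238, 0.363, 0.328 and 0.445 CPM in Aifm1-WT libraries, from 56 and 30 counts. The remaining members had log2 fold changes of 0.22 (Lpl), -0.097 (Spp1), -0.12 (Axl, a receptor kinase for apoptotic cells), -0.072 (Cd68, a lysosomal membrane protein of macrophages), 0.0097 (Ccl6) and -0.11 (Cd63).

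A split within the knock-in group ran through many members: Aifm1-KI 2 and 4 were higher than 1 and 3. The mean log2 CPM of the 16 homeostatic members was 4.03, 4.27, 3.97 and 4.27 in Aifm1-KI 1 to 4, against 4.35, 4.21, 4.18 and 4.14 in Aifm1-WT 1 to 4. The same libraries, 2 and 4, had the high striatal sums of 529 and 464 CPM given above, and Aifm1-KI 2 the choroid plexus markers. Without Aifm1-KI 2 and 4 the homeostatic median was -0.23, with 15 of 16 members below 0, and the disease-associated median -0.30, with 11 of 12 below 0. Over all genes the median was -0.0012. Since the libraries left out were the higher ones in the members, lower medians follow from that choice and are no separate result. Of the members, 0 passed the test in that fit of 6 libraries, as did 0 of 18838 genes. At an unadjusted p under 0.05 by edgeR stood 1167 genes. Among them were Apoe, Cd63, Axl, Spp1, Csf1r, C1qa, Trem2, C1qb, Ctsd, Cd9 and Fcrls, all lower in Aifm1-KI. These too rest on leaving out the higher libraries. The largest differences were in Spp1 (-0.77, SE 0.21, adjusted p = 0.799) and Cd63 (-0.56, SE 0.11, adjusted p = 0.799). Whether the tissue markers bear on the member levels was not tested.

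**Figure D2:**
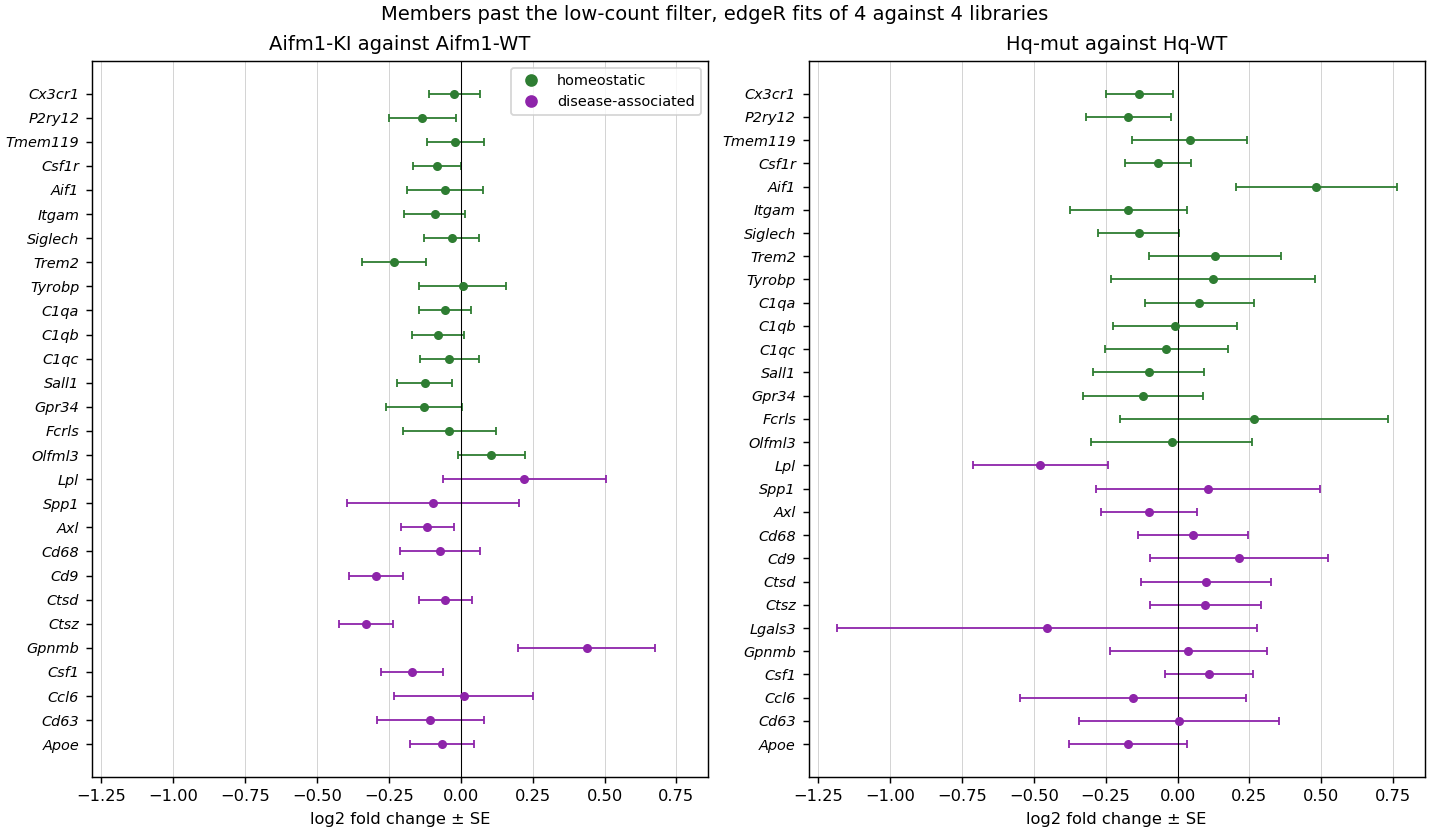
Log2 fold change and SE of each tested member, in Aifm1-KI against Aifm1-WT (left) and in Hq-mut against Hq-WT (right), with homeostatic members above and disease-associated members below. Of the homeostatic members, 15 of 16 lie within 0.2 of 0 in the knock-in panel and 14 of 16 in the Harlequin panel; Ctsz and Cd9 stand lowest in the knock-in panel, and the error bars of the Harlequin panel are wider.

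Hq-mut was set against Hq-WT to ask the same of Harlequin cortex. Here too no member passed the test: 0 of the 29 tested members were called, against 0.0167% of all 17969 genes (3 genes). At an unadjusted p under 0.05 stood 0 members, against 2.14% of all genes. Of the homeostatic members 6 were above 0 and 10 below, with a median of -0.03, and of 13 tested disease-associated members 8 were above and 5 below, with a median of 0.04, against a median of 0.011 over all genes, of which 53.1% were above 0. Libraries of the same number deviated together in this stock, so that each Hq-mut library was also set against the Hq-WT library of its number. With the replicate number as a block, 3 genes and 0 members were called (again 0.0167%), the homeostatic median was -0.06 and the disease-associated median 0.00013. The block raised the genes at an unadjusted p under 0.05 to 7.97% and the members to 2, Aif1 and Lpl.

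Aif1 was 7.96, 13.8, 8.64 and 5.23 CPM in Hq-mut 1 to 4 and 6.69, 7.14, 6.93 and 4.37 CPM in Hq-WT 1 to 4 (log2 fold change 0.48, SE 0.28, adjusted p = 1.0). The log2 differences within pairs were 0.25, 0.94, 0.31 and 0.26, all above 0, and the blocked log2 fold change was 0.44 (adjusted p = 0.591). Hq-mut 2 held by far the highest level, and without pair 2 the value was 0.27 (SE 0.25, adjusted p = 0.887). Pairs that all had the same sign were found for 1 of 16 homeostatic members (Aif1) and 1 of 13 disease-associated members (Ctsz), both higher in Hq-mut, against 11.9% of all genes, and for 0 members in the lower direction, against 6.88%. Ctsz was 22.8, 37.8, 29.3 and 25.2 CPM in Hq-mut and 20.1, 34.7, 26.99 and 24.2 CPM in Hq-WT libraries (log2 fold change 0.096, SE 0.19, adjusted p = 1.0), with pair differences of 0.18, 0.12, 0.12 and 0.062.

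For the receptors, P2ry12 was 42.3, 41.6, 33.1 and 28.9 CPM in Hq-mut and 40.8, 41.8, 45.5 and 33.6 CPM in Hq-WT libraries (log2 fold change -0.17, SE 0.15, adjusted p = 1.0). Hq-mut 3 and 4 lay below the lowest wild type, and Hq-mut 1 and 2 within the wild-type range. Cx3cr1 was 43.2, 43.8, 46.1 and 40.3 CPM in Hq-mut and 48.1, 39.5, 52.5 and 46.9 CPM in Hq-WT libraries (log2 fold change -0.13, SE 0.12, adjusted p = 1.0). Siglech was 11.4, 12.99, 11.6 and 11.8 CPM in Hq-mut and 13.6, 10.4, 13.1 and 14.5 CPM in Hq-WT libraries (log2 fold change -0.14, SE 0.14, adjusted p = 1.0). For both genes the mutant was lower in pairs 1, 3 and 4 and higher in pair 2, where Hq-WT 2 was the lowest library of all. Csf1r, Itgam and Gpr34 had log2 fold changes of -0.067, -0.17 and -0.12, and Fcrls one of 0.27 with an SE of 0.47.

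Among the TREM2 and complement genes Hq-mut 2 stood apart. Trem2 was 6.72, 11.7, 8.14 and 6.54 CPM in Hq-mut and 5.93, 8.58, 9.15 and 6.22 CPM in Hq-WT libraries (log2 fold change 0.13, SE 0.23, adjusted p = 1.0). Tyrobp was 6.12, 15.9, 5.76 and 4.64 CPM in Hq-mut and 6.09, 7.24, 9.06 and 6.94 CPM in Hq-WT libraries (log2 fold change 0.12, SE 0.36, adjusted p = 1.0; with the block, -0.011, adjusted p = 0.996). The Hq-mut 2 level of Tyrobp was over 2 times that of the other mutants, and without pair 2 its value was -0.43 (SE 0.20, adjusted p = 0.873). C1qa was 22.9, 43.1, 27.04 and 24.7 CPM in Hq-mut and 29.1, 29.7, 23.2 and 27.7 CPM in Hq-WT libraries (log2 fold change 0.076, SE 0.19, adjusted p = 1.0). C1qb, encoded in the same cluster on chromosome 4, was 19.4, 38.1, 18.2 and 21.4 CPM in Hq-mut, against 22.2 to 25.1 CPM in Hq-WT. C1qc, which lies between them, was 19.9, 37.9, 18.3 and 19.7 CPM in Hq-mut, against 22.00 to 25.7 CPM in Hq-WT. In Hq-mut 2 all 3 chains were above every other library of the series. Without pair 2 the log2 fold changes were -0.12 (C1qa), -0.31 (C1qb, SE 0.10, adjusted p = 0.873) and -0.31 (C1qc, SE 0.09, adjusted p = 0.873), and with the block in those 3 pairs -0.12, -0.31 and -0.31 (adjusted p = 0.625, 0.181 and 0.181). Tmem119, Sall1 and Olfml3 had values of 0.042, -0.100 and -0.019 over all pairs.

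Pair by pair, the median log2 difference of the 16 homeostatic members was -0.12, 0.38, -0.18 and -0.22 in pairs 1 to 4, with 7, 12, 4 and 4 members higher in the mutant. Over all genes the pair medians were 0.014 to 0.045. The disease-associated medians were 0.11, 0.073, -0.058 and 0.062. Hq-mut 2 was the highest of all 16 libraries in 8 homeostatic members (Tmem119, Aif1, Trem2, Tyrobp, C1qa, C1qb, C1qc and Fcrls) and in 5 disease-associated members (Cd9, Ctsd, Ctsz, Cd63 and Apoe). Without pair 2 the homeostatic median was -0.17 and the disease-associated median 0.05, against 0.0018 over all genes, and 0 members were called (1 of 18117 genes). Since pair 2 had the highest homeostatic difference, a lower homeostatic median follows from leaving it out. With the block as well, a fit chosen after seeing the data, 2693 of 18117 genes had an unadjusted p under 0.05 by edgeR. Among them were Apoe, C1qc, C1qb, Cx3cr1, Csf1r, Siglech, Tyrobp and Axl, all lower in Hq-mut, and 0 members were called.

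**Figure D3:**
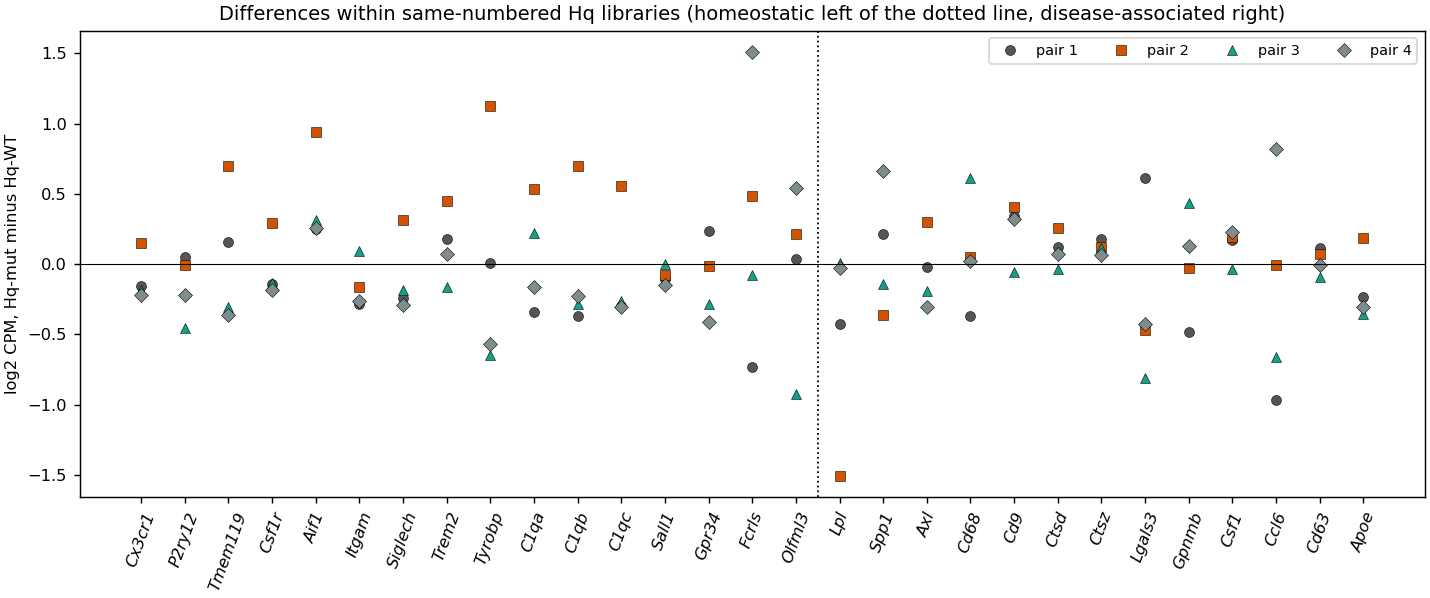
Log2 CPM of Hq-mut minus Hq-WT within each same-numbered pair of libraries, for the 29 members that passed the filter on low counts; colours and shapes give the pair. Pair 2 lies above the other pairs for Tyrobp (1.13), Aif1 (0.94), C1qb and Tmem119, and far below them for Lpl (-1.51).

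Pair 2 also differed by exon length. This counts all annotated exons of a gene together and can exceed the length of its main transcript. The median log2 level of genes under 1500 bases minus that of genes over 5000 bases, set against the mean of the 16 libraries, was 0.66 in Hq-mut 2 and 0.40 in Hq-WT 2, and between -0.14 and 0.010 in the other 14. Genes with a mean log2 CPM of at least 0 were used, 1878 short and 6396 long. Among the members with enough counts, 14 have under 2500 exon bases, and 13 of these were higher in Hq-mut 2 than in the mean of the other Hq-mut libraries, with a median log2 difference of 0.78. Of the 13 longer members 9 were higher, with a median of 0.16. In Hq-WT 2, set against the other Hq-WT libraries, the counts were 11 of 14 with a median of 0.28, and 6 of 13 with a median of -0.22. Tyrobp has 667 exon bases and C1qa 1040, while Sall1 has 5265 and was lowest of all 16 in Hq-mut 2. Whether length accounts for the high levels in Hq-mut 2 was not tested.

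**Figure D4:**
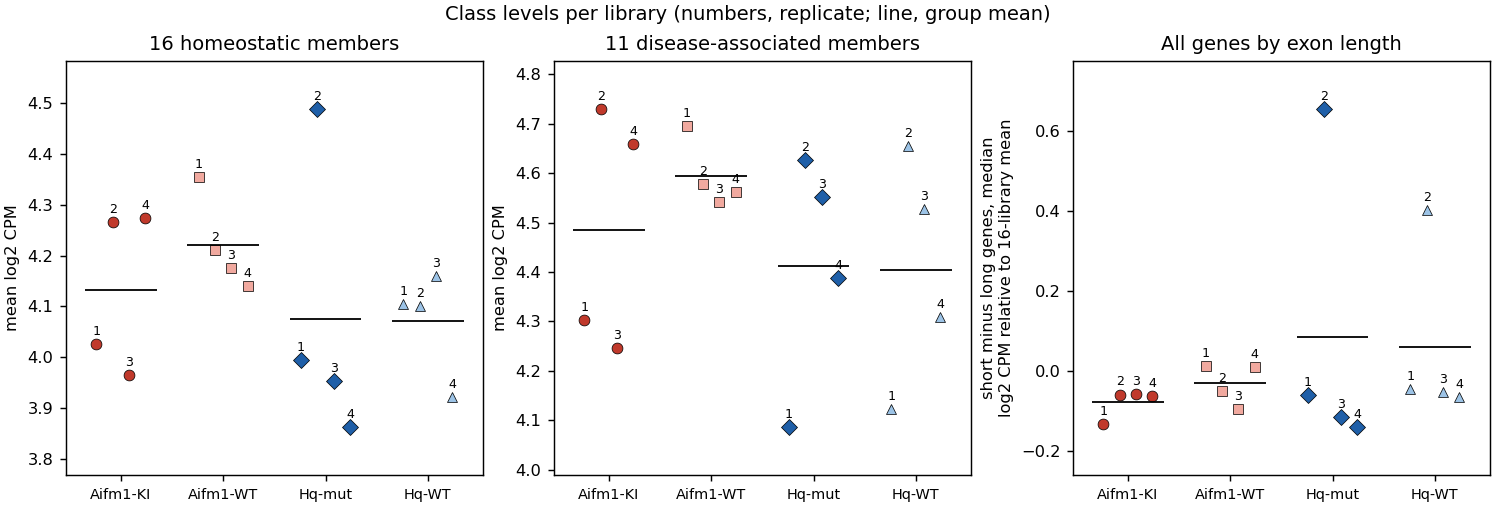
Mean log2 CPM per library over the 16 homeostatic members (left) and over the 11 disease-associated members with at least 10 counts in every library (middle), and the length measure over genes with a mean log2 CPM of at least 0 (right); numbers are replicate numbers and lines are group means. Hq-mut 2 is the highest homeostatic library, at 4.49, and the highest on the length measure, at 0.66.

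Among the disease-associated genes of the Harlequin stock, Lpl had the smallest p. It was 24.1, 11.7, 21.3 and 24.99 CPM in Hq-mut and 32.4, 33.4, 21.3 and 25.5 CPM in Hq-WT libraries (log2 fold change -0.48, SE 0.24, adjusted p = 1.0; with the block, -0.51, adjusted p = 0.624). The pair differences were -0.42, -1.51, 0.0046 and -0.029, so that pairs 1 and 2 carried the difference. Without pair 2 the value was -0.19 (SE 0.15, adjusted p = 0.873). Apoe was 694, 1294, 888 and 717 CPM in Hq-mut and 817, 1137, 1136 and 885 CPM in Hq-WT libraries (log2 fold change -0.17, SE 0.20, adjusted p = 1.0), lower in the mutant in pairs 1, 3 and 4 and higher in pair 2. Without pair 2 and with the block the Apoe value was -0.32 (SE 0.056, adjusted p = 0.130). Summed astrocyte markers were 5959, 5316, 7535 and 7845 CPM in Hq-mut 1 to 4 and 6286, 4698, 8618 and 8031 CPM in Hq-WT 1 to 4.

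Csf1 was 18.5, 16.9, 21.2 and 20.9 CPM in Hq-mut and 16.4, 14.8, 21.7 and 17.8 CPM in Hq-WT libraries (log2 fold change 0.11, SE 0.15, adjusted p = 1.0). Cd9 was 14.8, 31.9, 26.6 and 18.1 CPM in Hq-mut and 11.6, 24.04, 27.7 and 14.5 CPM in Hq-WT libraries (log2 fold change 0.21, SE 0.31, adjusted p = 1.0), with libraries 2 and 3 high in both groups. Ctsd was 119, 216, 121 and 116 CPM in Hq-mut and 109, 181, 124 and 110.1 CPM in Hq-WT libraries (log2 fold change 0.10, SE 0.23, adjusted p = 1.0). Library 2 was the highest of its group in both genotypes, and the remaining libraries of both groups lay between 109 and 124 CPM. Cst7 was 0.214, 0.040, 0.135 and 0.084 CPM in Hq-mut and 0.218, 0.051, 0.092 and 0.146 CPM in Hq-WT libraries, from 11 and 9 counts in all. Itgax had 28 counts in Hq-mut and 14 in Hq-WT, and Clec7a 21 in Hq-mut and 10 in Hq-WT, both too few for the filter. Scaled for depth, the means were 0.297 CPM in Hq-mut and 0.199 CPM in Hq-WT for Itgax. For Clec7a they were 0.222 CPM in Hq-mut and 0.178 CPM in Hq-WT. The remaining members had log2 fold changes of 0.11 (Spp1), -0.099 (Axl), 0.054 (Cd68), -0.45 (Lgals3, SE 0.73), 0.038 (Gpnmb), -0.15 (Ccl6) and 0.0038 (Cd63).

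Whether the Harlequin and the knock-in effect differ was tested over all 16 libraries, as the log2 fold change in Hq-mut minus that in Aifm1-KI. It was called for 0 of 29 tested members, against 0.0105% of all 19129 genes (2 genes), and 0 members had an unadjusted p under 0.05, against 5.08% of all genes. The homeostatic median was 0.03 (11 above 0 and 5 below) and the disease-associated median 0.12 (8 above and 5 below), against -0.00024 over all genes, of which 50% were above 0. The smallest p of the homeostatic set belonged to Aif1 at 0.54 (SE 0.33, adjusted p = 0.951) and Trem2 at 0.37 (SE 0.26, adjusted p = 0.952), followed by Cx3cr1 at -0.11 (SE 0.15, adjusted p = 0.973) and Siglech at -0.099 (SE 0.16, adjusted p = 0.976). In the disease-associated set they were Ctsz at 0.43 (SE 0.23, adjusted p = 0.946), Lpl at -0.69 (SE 0.40, adjusted p = 0.949), Csf1 at 0.29 (SE 0.19, adjusted p = 0.952) and Cd9 at 0.51 (SE 0.35, adjusted p = 0.952). With the block 2 genes (0.0105%) and 0 members were called, and 4 members had an unadjusted p under 0.05, against 10.9% of all genes, the lowest for Ctsz at 0.43 (adjusted p = 0.345). This block also pairs the knock-in libraries by number, though these did not deviate together (r of -0.069 to 0.127), so that its values rest in part on arbitrary pairs. Ctsz and Cd9 were below 0 in the knock-in and above 0 in Harlequin.

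The levels of the 2 sets were also set against each other in each library, as a description with no test. The mean log2 CPM of the homeostatic set was 4.13 ± 0.16 in Aifm1-KI, 4.22 ± 0.09 in Aifm1-WT, 4.08 ± 0.28 in Hq-mut and 4.07 ± 0.10 in Hq-WT (SD, n = 4 each). That of the disease-associated set was 2.61 ± 0.26 in Aifm1-KI, 2.70 ± 0.05 in Aifm1-WT, 2.56 ± 0.28 in Hq-mut and 2.56 ± 0.23 in Hq-WT. The disease-associated minus the homeostatic mean was -1.52 ± 0.13 in Aifm1-KI and -1.53 ± 0.08 in Aifm1-WT, and -1.51 ± 0.25 in Hq-mut and -1.51 ± 0.20 in Hq-WT. In either stock the mutant and wild-type means of this difference lay closer together than 1 SD of either group. Its sign rests on Cst7, Itgax, Clec7a, Lgals3 and Ccl6, the members with the fewest counts. Over the 11 disease-associated members with at least 10 counts in every library, the difference from the homeostatic mean was above 0. It was 0.35 ± 0.09 in Aifm1-KI, 0.37 ± 0.03 in Aifm1-WT, 0.34 ± 0.26 in Hq-mut and 0.33 ± 0.23 in Hq-WT.

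The wild types of the 2 stocks were also compared, which asks how far the stocks differ without either mutation. Set against Aifm1-WT, Hq-WT had 1 called member of 28 tested, Spp1, against 0.558% of all 18106 genes (101 genes; 41 higher, 0.226%, and 60 lower, 0.331%). At an unadjusted p under 0.05 stood 6 of 16 homeostatic and 2 of 12 disease-associated members, against 12.7% of all genes. Of the homeostatic members 3 were above 0 and 13 below, with a median of -0.15, and of the disease-associated members 4 were above and 8 below, with a median of -0.05, against 0.0046 over all genes, of which 51.0% were above 0. Stock, and any batch that goes with it, cannot be told apart, since the labels give neither dates nor batches.

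Spp1 encodes osteopontin, a secreted ligand of integrins and CD44. It was 1.58, 3.85, 4.44 and 3.69 CPM in Hq-WT and 11.4, 8.44, 10.2 and 9.48 CPM in Aifm1-WT libraries, a log2 fold change of -1.56 (SE 0.25, adjusted p = 0.0243). Every Hq-WT library lay below every Aifm1-WT library. The mutants were 1.84, 2.98, 4.01 and 5.91 CPM in Hq-mut, in the range of their stock or slightly above it, and 7.18, 14.2, 3.94 and 10.3 CPM in Aifm1-KI, on both sides of their wild types. Leaving out Aifm1-WT 1, 2 or 3 ended the call, with adjusted p of 0.0982, 0.0655 and 0.0665 and log2 fold changes of -1.48, -1.63 and -1.54 in that order. With the replicate block the adjusted p was 0.0430 (0.547% of all genes called), and DESeq2 gave 3.59e-07. That block is no check on Spp1, since same-numbered libraries of the 2 stocks did not deviate together (r of -0.156 to 0.153).

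The C1q genes followed, none of them called. C1qb was 25.02, 23.5, 22.2 and 25.1 CPM in Hq-WT and 33.8, 28.5, 29.3 and 33.02 CPM in Aifm1-WT libraries (log2 fold change -0.38, SE 0.084, adjusted p = 0.0760), and DESeq2 called it at an adjusted p of 0.0148. C1qa was 29.1, 29.7, 23.2 and 27.7 CPM in Hq-WT and 36.1, 31.8, 33.2 and 32.8 CPM in Aifm1-WT libraries (log2 fold change -0.29, SE 0.087, adjusted p = 0.194). C1qc was 24.5, 25.7, 22.00 and 24.3 CPM in Hq-WT and 33.1, 28.4, 25.95 and 26.96 CPM in Aifm1-WT libraries (log2 fold change -0.25, SE 0.092, adjusted p = 0.288). For each chain every Hq-WT library was below every Aifm1-WT library, if narrowly for C1qc. Itgam, the CD11b chain of a receptor that binds complement fragments, was 5.82, 4.78, 6.38 and 6.85 CPM in Hq-WT and 8.55, 7.91, 8.09 and 8.28 CPM in Aifm1-WT libraries (log2 fold change -0.47, SE 0.14, adjusted p = 0.187), again with no overlap. Such separation in the lower direction was found for 4 of 16 homeostatic members, against 4.59% of all genes, and for 1 of 12 disease-associated members, Spp1.

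Csf1 was 16.4, 14.8, 21.7 and 17.8 CPM in Hq-WT and 23.3, 22.7, 23.2 and 18.8 CPM in Aifm1-WT libraries (log2 fold change -0.33, SE 0.13, adjusted p = 0.326). Cd68 was 5.495, 5.75, 3.98 and 4.66 CPM in Hq-WT and 5.65, 6.78, 6.01 and 5.96 CPM in Aifm1-WT libraries (log2 fold change -0.30, SE 0.15, adjusted p = 0.430). Ccl6 was 0.762, 0.719, 0.555 and 0.486 CPM in Hq-WT and 1.05, 0.727, 0.710 and 0.801 CPM in Aifm1-WT libraries (log2 fold change -0.38, SE 0.27, adjusted p = 0.580), from 44 and 71 counts. The groups of these 3 genes overlap. Aif1 went the other way, at 6.28 ± 1.29 CPM in Hq-WT and 4.55 ± 0.438 CPM in Aifm1-WT (SD, n = 4 each; log2 fold change 0.46, SE 0.17, adjusted p = 0.306).

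Macrophages at the borders of the brain, along vessels and in the meninges, share several members with microglia, among them the C1q genes. Their 9 markers summed to 12.4, 9.66, 22.2 and 19.2 CPM in Hq-WT 1 to 4, against 30.3 to 31.1 CPM in Aifm1-WT, and 5 of 5 tested markers were below 0 with a median of -1.14. Cd163, a haemoglobin scavenger receptor of these cells, was called, at 0.653, 0.360, 1.02 and 0.728 CPM in Hq-WT and 2.71, 2.10, 1.80 and 2.27 CPM in Aifm1-WT libraries (log2 fold change -1.74, SE 0.29, adjusted p = 0.0286). Without a single library its adjusted p was 0.0185 to 0.117. With the replicate block, which joins libraries of different stocks by number alone, it was 0.0604. Mrc1, the mannose receptor, chosen after its values were seen, was 1.36, 1.59, 3.42 and 3.16 CPM in Hq-WT and 5.51, 5.13, 4.75 and 5.21 CPM in Aifm1-WT libraries (log2 fold change -1.14, SE 0.27, adjusted p = 0.105). The part of these cells in the values of Spp1 and the C1q genes was not tested. In the mutants the 9 markers summed to 11.99, 12.2, 20.6 and 19.6 CPM in Hq-mut 1 to 4 and 25.6, 32.5, 21.3 and 35.2 CPM in Aifm1-KI 1 to 4.

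**Figure D5:**
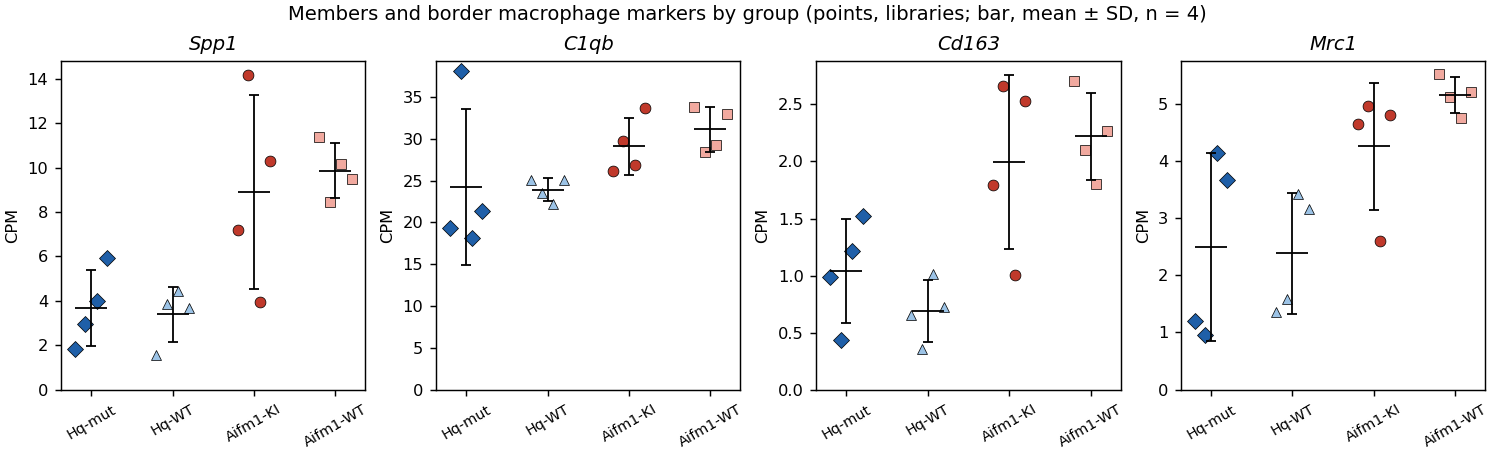
CPM of Spp1, C1qb and the border macrophage markers Cd163 and Mrc1 by group; points are libraries and bars the mean ± SD (n = 4). The Hq-WT libraries of Spp1 lie between 1.58 and 4.44 CPM, below all Aifm1-WT libraries at 8.44 to 11.4 CPM.

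Other genes of the same pathways were read from lists chosen by name. In these lists edgeR called 0 genes in either mutant, while DESeq2 called Bhlhe41, C3 and the striatal markers Drd1, Drd2, Adora2a and Rgs9 in Aifm1-KI. Each list is given by the numbers above and below 0 among those tested. Of 15 other microglial genes, 5 were above and 10 below in Aifm1-KI, with the smallest p for Adgre1, the F4/80 antigen, at -0.26 (SE 0.12, adjusted p = 0.431). In Hq-mut 3 were above and 12 below, with the smallest p for P2ry13, a nucleotide receptor close to P2ry12. P2ry13 was 8.18, 8.62, 7.74 and 8.61 CPM in Hq-mut and 10.9, 9.91, 10.9 and 10.7 CPM in Hq-WT libraries (log2 fold change -0.38, SE 0.12, adjusted p = 1.0; with the block, -0.38, adjusted p = 0.528). All 4 mutants were below all 4 wild types, a separation in the lower direction that 0.723% of all genes showed.

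Of 10 transcription factors of microglia 3 were above and 7 below in Aifm1-KI, led by Bhlhe41 at 29.8, 28.1, 28.9 and 28.01 CPM in Aifm1-KI and 32.6, 35.8, 40.8 and 39.1 CPM in Aifm1-WT libraries (log2 fold change -0.35, SE 0.077, adjusted p = 0.368). These groups do not overlap, as was so in the lower direction for 2.83% of all genes, and DESeq2 called Bhlhe41 at an adjusted p of 0.0426. In Hq-mut 5 were above and 5 below, led by Irf5 at -0.39 (SE 0.23, adjusted p = 1.0). Of 8 genes of CSF1R, TGF-beta and fractalkine signals 5 were above and 3 below in both mutants, led by Nrros, which anchors latent TGF-beta on microglia, at 0.54 (SE 0.20, adjusted p = 0.399) in Aifm1-KI and by Smad3, a TGF-beta signal carrier, at -0.20 (SE 0.12, adjusted p = 1.0) in Hq-mut. Of 9 tested genes linked to TREM2, not all of them downstream of it, 3 were above and 6 below in Aifm1-KI, led by the kinase gene Syk at -0.27 (SE 0.19, adjusted p = 0.597), and 5 above and 4 below in Hq-mut, led by Pik3cg, a lipid kinase, at -0.49 (SE 0.26, adjusted p = 1.0).

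Of the other complement genes, in Aifm1-KI 4 were above and 7 below with a median of -0.28, and in Hq-mut 6 of 9 were above with a median of 0.26. C3, the central complement protein, was 0.634, 0.847, 0.922 and 0.480 CPM in Aifm1-KI and 7.89, 11.02, 1.64 and 1.20 CPM in Aifm1-WT libraries (log2 fold change -2.92, SE 0.72, adjusted p = 0.368). Its level in Aifm1-WT 1 and 2 was far above that in the other wild types, and every Aifm1-KI library was below all of them. In Hq-WT it was 0.218, 0.462, 0.185 and 0.146 CPM, and against Aifm1-WT it was called (log2 fold change -4.38, SE 0.81, adjusted p = 0.0465, and 0.0166 to 0.151 without a single library). C4b, which acts just upstream, was 5.31, 10.9, 17.6 and 8.40 CPM in Hq-mut and 4.46, 3.03, 9.43 and 5.29 CPM in Hq-WT libraries (log2 fold change 0.92, SE 0.41, adjusted p = 1.0), higher in the mutant in every pair. Of 14 lysosomal genes 5 were above and 9 below in Aifm1-KI, led by the regulator Tfeb at -0.37 (SE 0.11, adjusted p = 0.368), and 8 above and 6 below in Hq-mut, led by the protease gene Ctsb at 0.18 (SE 0.13, adjusted p = 1.0). Of 6 tested inflammatory genes 5 were above and 1 below in Aifm1-KI, led by the inflammasome sensor gene Nlrp3 at 0.61 (SE 0.23, adjusted p = 0.399), and 2 above and 4 below in Hq-mut, led by the cytokine gene Il1a at -1.05 (SE 0.31, adjusted p = 1.0).

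Markers of cells that could enter the tissue were low. The 9 monocyte and neutrophil markers summed to 0.565 to 1.58 CPM per library, 1 of them had no count in any library, and 0 passed the filter on low counts. Border macrophage markers had 2 of 7 tested above 0 in Aifm1-KI, led by Cbr2 at -0.57 (SE 0.40, adjusted p = 0.598), and 4 of 5 in Hq-mut, led by Cd163 at 0.61 (SE 0.43, adjusted p = 1.0). Of the other cell types, striatal markers were above 0 for 10 of 10 genes in both mutants (medians of 1.11 in Aifm1-KI and 0.95 in Hq-mut), choroid plexus markers for 8 of 8 in Aifm1-KI and 0 of 8 in Hq-mut, and oligodendrocyte markers for 0 of 10 in Aifm1-KI and 10 of 10 in Hq-mut. Astrocyte markers were above 0 for 5 of 12 in Aifm1-KI and 4 of 12 in Hq-mut, endothelial markers for 2 of 10 in Aifm1-KI and 6 of 10 in Hq-mut, excitatory neuron markers for 1 of 10 in Aifm1-KI and 6 of 10 in Hq-mut, and blood markers for 1 of 5 in Aifm1-KI and 0 of 5 in Hq-mut.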

How the data were processed

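Poly(A) RNA of cerebral cortex, extracted with TRIzol and sequenced as 51-base single-end reads per the labels' protocols, was measured in 16 libraries. The authors deposited raw read counts for each gene, not normalized; STAR 2.6, SAMtools and HTSeq are named in the submitters' processing notes, with alignment to mm10. Not given in the sources used here are the annotation release, the version of HTSeq and whether strand was counted. Gene symbols, positions and exon lengths were taken from GENCODE M21 on GRCm38, which paired 55480 of 55573 gene IDs with a symbol, and 0 rows lacked a gene ID. Totals were 10671580 to 32551594 counts per library.

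Counts were tested with edgeR 4.0.16 in R 4.3.3 (TMM scaling, filterByExpr, quasi-likelihood F-test), separately for each pair of groups and over all 16 libraries for the difference of effects. P-values were adjusted over all genes tested by the Benjamini-Hochberg method, and an adjusted p under 0.05 was called. CPM was computed over the 16 libraries with TMM, and log2 CPM with a prior count of 2. The script was tested on simulated counts with 200 changed genes. These had no pairs and less spread between libraries than the Harlequin fit, whose common dispersion was 0.046. The simulation therefore does not show what the Harlequin fit could detect. DESeq2 1.42.0, RLE scaling, no filter, a replicate block and left-out libraries were alternatives; those joining a left-out Harlequin pair to a block were chosen after seeing the data. Same-numbered libraries deviated together in the Harlequin stock (r of 0.44 to 0.571 over 16026 genes, from the data and not the labels), so that their numbers were taken as pairs. In the knock-in stock r was -0.069 to 0.127, and between the wild types -0.156 to 0.153.

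The members and lists were chosen with earlier results of these data known. All 32 members are named. Values in every library are given for called members, for the 4 with the smallest p in each set and comparison, and for P2ry12, Cx3cr1, Trem2, Tyrobp, C1qa, Apoe, Cst7 and Ctsd. Of each other list, called genes or else the gene with the smallest p are named.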

Additional observations from a re-analysis of the deposited data

Results flagged for a closer look

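In groups of 4 libraries, 1 library was set apart where its gap to the nearest other library, divided by the range of the group, passed Dixon's 95% critical value. Over 120 groups examined, 9 passed, and chance gives about 1 in 20. Of these 9, 4 were in Hq-mut 2. There Tyrobp was 15.9 CPM, against 4.64 to 6.12 CPM in the other Hq-mut libraries. C1qb was 38.1 CPM, against 18.2 to 21.4 CPM, and C1qc was 37.9 CPM, against 18.3 to 19.9 CPM. Ctsd was 216.3 CPM, against 116 to 121 CPM. Hq-mut 2 also had the highest value of the length measure, 0.66.

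The other 5 were spread over the groups. Gpnmb was 1.22 CPM in Aifm1-KI 1, against 2.01 to 2.16 CPM in the other Aifm1-KI libraries. The disease-associated minus the homeostatic mean log2 level was -1.32 in Aifm1-KI 2, against -1.61 to -1.57 in the others of that group. That mean includes the members with the fewest counts. Over the 11 disease-associated members with at least 10 counts in every library it was 0.28, 0.46, 0.28 and 0.38 in Aifm1-KI 1 to 4. There Aifm1-KI 2 was highest and Aifm1-KI 4 next. Axl was 49.99 CPM in Aifm1-WT 1, against 45.6 to 46.2 CPM, and Csf1 was 18.8 CPM in Aifm1-WT 4, against 22.7 to 23.3 CPM. Aif1 was 4.37 CPM in Hq-WT 4, against 6.69 to 7.14 CPM in the other Hq-WT libraries.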

How the results depend on the processing

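The count of genes called depended on the tool and the libraries more than the members did. In Aifm1-KI against Aifm1-WT, DESeq2 called 82 genes and leaving out 1 library 0 to 46, with 0 members in each. In Hq-mut against Hq-WT, leaving out pair 2, pair 3, or pair 3 with the replicate block left 1 gene called in each, pair 2 with the block left 4, and leaving out 1 library left 1 to 2. For the difference of the effects DESeq2 called 5 genes, leaving out Aifm1-KI 2 and 4 or Harlequin pair 2 left 1, and leaving out 1 library 1 to 2. In Hq-WT against Aifm1-WT, DESeq2 called 421 genes (171 higher and 250 lower), no filter 560 (172 higher and 388 lower), and leaving out 1 library 32 to 231; members called were 2 with DESeq2 and 0 to 1 without 1 library. With a prior count of 0.5 the disease-associated level was lower in every group, at 2.45 in Aifm1-KI, 2.57 in Aifm1-WT, 2.41 in Hq-mut and 2.42 in Hq-WT. The sign turned for several members, not only those close to 0, and the cause was not tested. Fcrls, at 0.27 in Hq-mut, was -0.16 to 0.57 without 1 library. Class medians turned too. In Hq-mut they were -0.155 to 0.074 (homeostatic) and -0.092 to 0.14 (disease-associated). For the difference of the effects they were -0.091 to 0.12 and -0.098 to 0.22 in that order. Between the wild types the disease-associated median was -0.23 to 0.061. In Aifm1-KI, Tyrobp was -0.0072 with no filter, -0.013 with the replicate block and -0.27 without Aifm1-KI 2 and 4. Without 1 library it was -0.13 to 0.085, Ctsd -0.11 to 0.00070 and Cx3cr1 -0.091 to 0.031. In Hq-mut, C1qa was -0.12 without pair 2, with and without the block, and -0.012 without pair 3 with the block. Tyrobp was -0.011 with the replicate block and -0.43 without pair 2 (-0.42 with the block). Without 1 library C1qa was -0.15 to 0.18, Ctsd -0.16 to 0.30, Trem2 -0.069 to 0.25 and Tyrobp -0.42 to 0.31. The difference of effects for Siglech was 0.026 without Aifm1-KI 2 and 4. The replicate block pairs libraries by number, and same-numbered libraries deviated together in the Harlequin stock alone. It called no member that the fit without it did not, and it also called Spp1 between the wild types, where it is no check. Depth limits Cst7, Clec7a and Itgax, at 47 to 67 counts over 16 libraries.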

Other observations

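Markers of other cell types, given by the gene of smallest p in each list, had 0 calls by edgeR in either mutant. For astrocytes this was Aldh1l1 at -0.30 (SE 0.079, adjusted p = 0.368) in Aifm1-KI and Aldoc at -0.14 (SE 0.16, adjusted p = 1.0) in Hq-mut. For oligodendrocytes it was Opalin at -0.59 (SE 0.25, adjusted p = 0.426) in Aifm1-KI and 0.45 (SE 0.43, adjusted p = 1.0) in Hq-mut. For excitatory neurons it was Rorb at -0.44 (SE 0.13, adjusted p = 0.368) in Aifm1-KI and Cux2 at -0.31 (SE 0.14, adjusted p = 1.0) in Hq-mut, and for endothelium Tek at -0.48 (SE 0.12, adjusted p = 0.368) in Aifm1-KI and Slco1a4 at -0.24 (SE 0.13, adjusted p = 1.0) in Hq-mut. For striatum it was Drd2 at 2.98 (SE 0.62, adjusted p = 0.368) in Aifm1-KI and Tac1 at 0.84 (SE 0.25, adjusted p = 1.0) in Hq-mut, for choroid plexus Sostdc1 at 2.08 (SE 0.93, adjusted p = 0.438) in Aifm1-KI and -3.13 (SE 1.39, adjusted p = 1.0) in Hq-mut, and for blood Hbb-bs at -0.37 (SE 0.22, adjusted p = 0.528) in Aifm1-KI and Hba-a2 at -0.89 (SE 0.26, adjusted p = 1.0) in Hq-mut.

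Between the wild types, Hq-WT against Aifm1-WT, the other lists were as follows by edgeR. Of 15 other microglial genes 2 were above 0 and 13 below, with the smallest p for Fcgr3, an Fc receptor, at -0.47 (SE 0.12, adjusted p = 0.145). Of 10 transcription factors 3 were above and 7 below, led by Bhlhe41 at -0.42 (SE 0.12, adjusted p = 0.187). Of 9 tested genes linked to TREM2, 2 were above and 7 below, led by Inpp5d, a lipid phosphatase, at -0.19 (SE 0.14, adjusted p = 0.588), and of 11 other complement genes 2 were above and 9 below. Of 8 genes of CSF1R, TGF-beta and fractalkine signals 4 were above and 4 below, led by Il34, a ligand of CSF1R, at 0.22 (SE 0.10, adjusted p = 0.408). Lysosomal genes had 8 above and 6 below, led by Ctsa at -0.15 (SE 0.074, adjusted p = 0.433), and inflammatory genes 4 above and 2 below, led by Nos2 at 0.58 (SE 0.38, adjusted p = 0.550).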
